A study of Mus musculus with 6 samples.

Results

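Wdfy1 and 6 genes that lie close to it on mouse chromosome 1 (Ap1s3, Mrpl44, Serpine2, Cul3, Scg2 and Acsl3) were followed in hindlimb buds that lack the transcription factor LMX1B. The genes were taken by symbol: every probe set that the platform annotation ties to exactly 1 symbol equal to one of the 7 names was used. These were 19 of 45037 probe sets, 5 for Wdfy1, 5 for Cul3, 4 for Mrpl44, 3 for Acsl3 and 1 each for Ap1s3 and Scg2. Serpine2 was not analysed here, so 6 of the 7 genes have values. Wdfy1 was selected on its higher array values in mutant buds, and Ap1s3 was chosen by name with its own values known. For these 2 genes the comparison of mutant with wild type is therefore a description, for which no p-value is given. Their intervals and calls are printed without allowance for that choice and carry no test. The other 4 were taken for their position. The study asked which genes LMX1B controls in the growing hindlimb. Its 6 arrays held 3 pools of Lmx1b -/- buds (called Lmx1b-null here) and 3 pools of wild-type buds, all of the 129Sv strain at stage E11.5, counted in embryonic days, when the bud is still mostly mesenchyme. Each pool combined both hindlimb buds of 3 embryos, 6 buds in all, cut to the proximal 500 µm or so. A pool is an average over its embryos, and the labels give neither the sex of the embryos, nor whether the groups were littermates, nor how the Lmx1b allele was made.

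WDFY1 carries WD40 repeats and a FYVE zinc finger, a fold that binds the lipid phosphatidylinositol 3-phosphate and so places the protein on early endosomes. It is also known as an adaptor that brings the signalling protein TRIF to the Toll-like receptors TLR3 and TLR4. AP1S3 is a small subunit of the AP-1 clathrin adaptor, which sorts cargo between the trans-Golgi network and endosomes. LMX1B, encoded on another chromosome, is the LIM homeodomain factor that gives dorsal limb mesenchyme its identity.

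In the RefSeq gene order of assembly GRCm38.p6, Ap1s3 and Mrpl44 are the protein-coding genes next to Wdfy1, 1 on each side, and the annotated spans of Mrpl44 and Wdfy1 overlap. Serpine2 follows as the second protein-coding gene on the Mrpl44 side and Cul3 as the fourth. Scg2 is the second and Acsl3 the fifth on the Ap1s3 side. Promoter windows of 300 bases, from 250 before to 50 after the annotated start, were matched from RefSeq for 6 of the 7 genes (build GRCm38.p6). The gene without a window was Wdfy1 itself, so its promoter was not searched, whereas Serpine2 had one. Those of Ap1s3 and Mrpl44 are shown because these genes flank Wdfy1 and had unlike values, and because the whole Mrpl44 window, at chr1:79775768-79776067 on the plus strand, lies inside the annotated span of Wdfy1. The Ap1s3 window is chr1:79671923-79672222 on the minus strand, and both are written 5′ to 3′ along the gene:
Ap1s3: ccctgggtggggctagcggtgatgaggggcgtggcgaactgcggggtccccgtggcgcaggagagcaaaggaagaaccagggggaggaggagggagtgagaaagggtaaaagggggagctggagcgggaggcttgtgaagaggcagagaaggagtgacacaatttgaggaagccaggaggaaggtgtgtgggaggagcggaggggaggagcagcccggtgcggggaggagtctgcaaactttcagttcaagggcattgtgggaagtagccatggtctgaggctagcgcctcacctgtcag
Mrpl44: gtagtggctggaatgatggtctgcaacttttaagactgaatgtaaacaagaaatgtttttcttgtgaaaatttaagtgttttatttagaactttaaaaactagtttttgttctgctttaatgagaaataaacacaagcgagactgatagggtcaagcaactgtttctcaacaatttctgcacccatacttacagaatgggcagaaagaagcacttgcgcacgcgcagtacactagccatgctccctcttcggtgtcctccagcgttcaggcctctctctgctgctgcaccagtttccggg
The letters TAATTA, a core that homeodomain proteins bind, read the same on both strands and would stand in capitals. They were found in 0 of the 6 windows, against 5.29% of 32851 promoter windows of the same length in the table. Their absence says only that these letters are not in these windows. The windows differ in base composition, with 62% G and C in that of Ap1s3 and 42.3% in that of Mrpl44, around a median of 52.7% over all promoter windows.

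Values are log2 RMA values, that is, array signals already corrected for background, normalized between arrays and summarised per probe set by the authors, and each change is the null mean less the wild-type mean on that scale. The arrays were alike, with correlations between any pair of 0.993 to 0.997 over all probe sets. The mutated gene bore out the labels in its brighter probe set, at 4.62, 4.23 and 4.57 in null pools 1 to 3, against 8.02, 7.58 and 8.17 in wild-type pools 1 to 3. Its other probe set, 1421769_at, did not separate the groups. It lay below the median level of the arrays, with means of 3.92 in null pools and 3.93 in wild-type pools. Limb mesenchyme was present as labelled: the 8 mesenchymal markers checked, among them Prrx1 and Tbx4, all lay above the median level of the arrays, with a mean of 9.65 to 9.71 in null pools and 9.68 to 9.75 in wild-type pools. Some lists of other cell types did not overlap between groups. The mean of 6 endothelial markers was 6.59 to 6.66 in null pools and 6.74 to 6.96 in wild-type pools, and that of 5 muscle precursor markers was 6.87 to 6.95 in null pools and 6.48 to 6.77 in wild-type pools. Members were unequal, with changes from -0.65 (Tek) to -0.06 (Cdh5) in the endothelial list and from -0.005 (Pax3) to 0.51 (Myod1) in the muscle list. None of the 11 passed the threshold, where 0.0934% of all genes did in their brightest probe set, so nothing is read from that. The part of these cell types in the values below was not tested. Xist, the transcript of the inactive X chromosome, differed between pools, at 9.66, 9.16 and 10.79 in null pools 1 to 3, against 4.68, 9.88 and 4.72 in wild-type pools 1 to 3. The Y-linked genes Kdm5d, Eif2s3y and Uty were lowest in null pool 3, at 2.40, 2.65 and 3.75. In all other pools they lay between 5.65 and 7.12. By these genes the mix of sexes differed between pools and was not even across the groups.

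Wdfy1 was higher in every null pool than in any wild-type pool in all 5 of its probe sets, by a little over 2-fold in 3 of them. Its brightest probe set, 1437358_at, read 6.90, 6.75 and 6.82 in null pools 1 to 3, against 5.58, 5.65 and 5.72 in wild-type pools 1 to 3. The lowest null pool thus lay more than 1 log2 unit above the highest wild-type pool, and the pools of a group lay close together. Means were 6.82 ± 0.07 in null pools and 5.65 ± 0.07 in wild-type pools (SD, n = 3 each), a change of 1.17 (SE 0.07, 95% interval 1.00 to 1.34), or 2.25-fold. Wild-type pool 2, whose Xist level lay within the range of the null pools, lay between the other 2 wild-type pools in this probe set. In 1424749_at and 1453426_a_at it was the lowest wild-type pool, at 5.43 and 4.95. In 1435588_at and 1447543_at it was again between the others, at 4.58 and 2.35. In the Ap1s3 probe set it was the highest wild-type pool, at 5.64. The part of embryo sex in the Wdfy1 and Ap1s3 values was not tested. In bulk tissue, more RNA per cell and more cells that make it cannot be told apart.

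The other probe sets of Wdfy1 had the same direction with unequal size. Probe set 1424749_at read 6.77, 6.73 and 6.76 in null pools 1 to 3, against 5.57, 5.43 and 5.64 in wild-type pools 1 to 3, a change of 1.20 (SE 0.07). Probe set 1435588_at read 5.88, 5.86 and 5.68 in null pools, against 4.57, 4.58 and 5.01 in wild-type pools, a change of 1.09 (SE 0.13). These 3 are close in size, and the third has the widest spread, with wild-type pool 3 standing above the other wild-type pools. Probe set 1453426_a_at was well above the floor of the arrays and yet differed less, at 5.58, 5.53 and 5.57 in null pools, against 5.26, 4.95 and 5.21 in wild-type pools, a change of 0.42 (SE 0.09). Probe set 1447543_at lay near the bottom of the range, at 2.67, 2.69 and 2.60 in null pools, against 2.50, 2.35 and 2.24 in wild-type pools, a change of 0.29 (SE 0.08). RMA compresses changes at so low a level, so its size is inexact.

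The gap between the brightest Wdfy1 probe set and 1453426_a_at was 1.22 to 1.31 in null pools and 0.32 to 0.70 in wild-type pools. The gap was thus wider in null pools by 0.75, without overlap of pools. Against 1424749_at and 1435588_at it differed by -0.03 and 0.08, and pools overlapped. Which part of the Wdfy1 transcript each probe set reads was not known here.

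Over the whole table, 38 of 45037 probe sets (0.0844%) passed an adjusted p of 0.05 in limma, a linear model per probe set with moderated variance and Benjamini-Hochberg adjustment, and 10 of them (0.0222%) were higher in null pools. Of the 19 probe sets of the 6 genes, 3 were among these 10, and all 3 belong to Wdfy1. Wdfy1 was chosen for this, so nothing is read from that count. With the Xist level of each pool in the fit, the change of the brightest probe set was 1.16, beside 1.17 without it, and did not pass. Calls over all probe sets fell from 38 to 9 in that fit, so the loss of this call is not particular to Wdfy1.

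**Figure D1:**
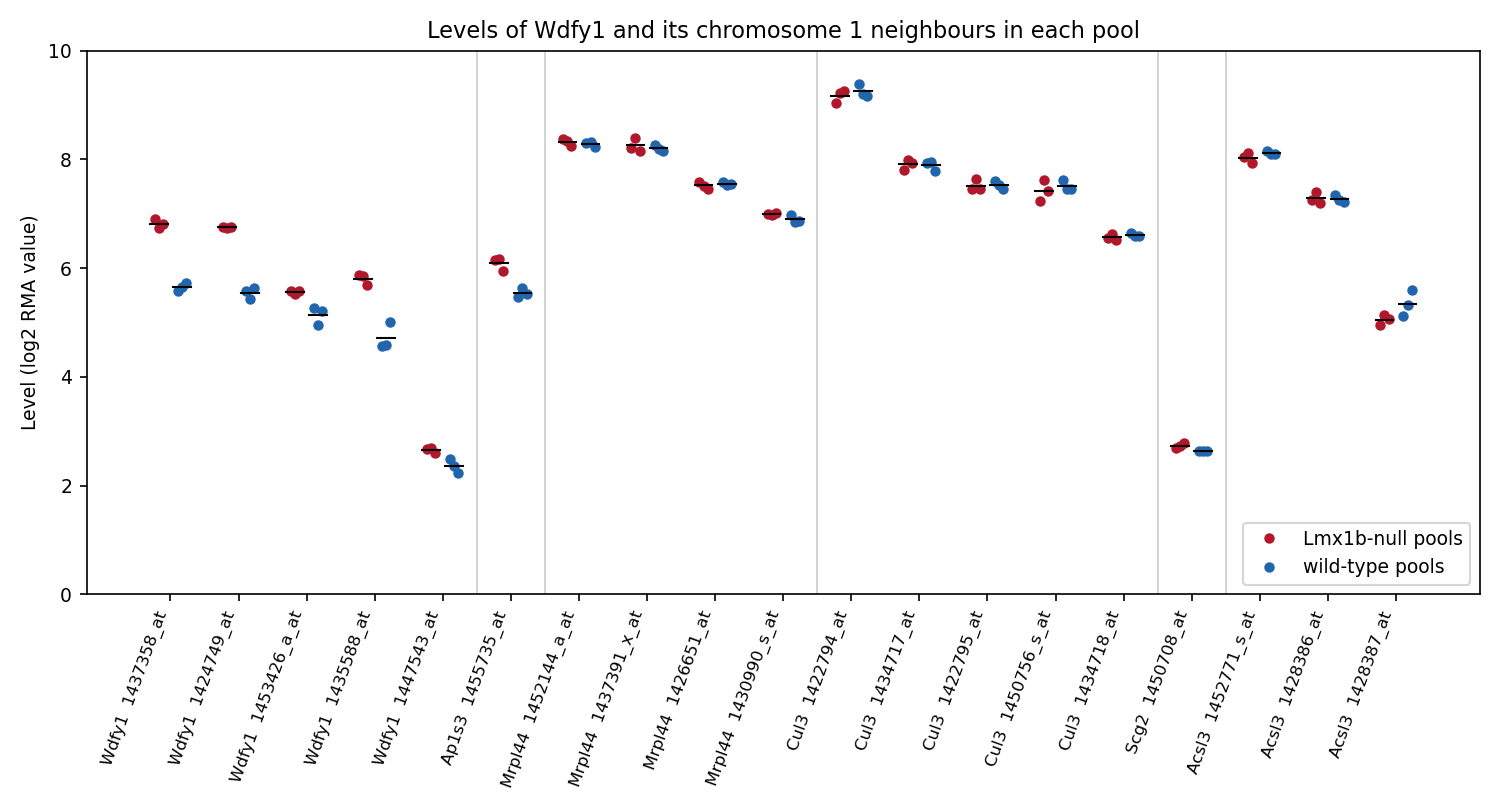
Level of each of the 19 probe sets (y axis, log2 RMA value) in every pool, with Lmx1b-null pools in red left of wild-type pools in blue and group means as black bars (n = 3 each). The 5 Wdfy1 probe sets and that of Ap1s3 separate the groups, as does that of Scg2 at the bottom of the range, whereas those of Cul3 and Acsl3 overlap and those of Mrpl44 overlap in 3 of 4.

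Ap1s3 had the second largest difference among the 6 genes. Its only probe set, 1455735_at, read 6.16, 6.16 and 5.95 in null pools 1 to 3, against 5.47, 5.64 and 5.52 in wild-type pools 1 to 3. The groups did not overlap: null pool 3, the lowest null pool, lay above wild-type pool 2, the highest wild-type pool. Means were 6.09 ± 0.12 in null pools and 5.55 ± 0.09 in wild-type pools (SD, n = 3 each), a change of 0.54 (SE 0.09, 95% interval 0.35 to 0.74), or 1.46-fold. It did not pass the threshold over all probe sets.

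Mrpl44, which encodes a protein of the large subunit of the mitochondrial ribosome, did not pass in any of its 4 probe sets, although its span overlaps that of Wdfy1. Its brightest probe set, 1452144_a_at, read 8.37, 8.34 and 8.25 in null pools 1 to 3, against 8.31, 8.33 and 8.22 in wild-type pools 1 to 3. The groups overlapped almost fully, with a change of 0.03 (SE 0.07, 95% interval -0.12 to 0.19; limma adjusted p = 0.919). The other 3 probe sets changed by -0.03, 0.05 and 0.10. In the last of them, 1430990_s_at, the lowest null pool at 6.98 lay just above the highest wild-type pool at 6.97 (adjusted p = 0.662).

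Cul3, the scaffold of a family of ubiquitin ligases that use BTB-domain proteins to hold their substrates, was bright in all 5 of its probe sets, and none passed. The brightest, 1422794_at, read 9.04, 9.23 and 9.25 in null pools 1 to 3, against 9.38, 9.20 and 9.18 in wild-type pools 1 to 3. The groups overlapped, with a change of -0.08 (SE 0.09, 95% interval -0.29 to 0.12; limma adjusted p = 0.811). Over the 5 probe sets the changes ran from -0.09 to 0.02, and pools overlapped in all 5.

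Acsl3, an acyl-CoA synthetase that activates long-chain fatty acids and is known from lipid droplets, did not pass in its 3 probe sets. The brightest, 1452771_s_at, read 8.04, 8.12 and 7.94 in null pools 1 to 3, against 8.15, 8.11 and 8.09 in wild-type pools 1 to 3, a change of -0.09 (SE 0.07; limma adjusted p = 0.736). Probe set 1428386_at changed by 0.01. The dimmest, 1428387_at, read 4.95, 5.13 and 5.06 in null pools 1 to 3, against 5.12, 5.33 and 5.59 in wild-type pools 1 to 3, a change of -0.30 (SE 0.12; adjusted p = 0.504). That value ran opposite to Wdfy1, and its groups overlapped.

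Scg2, which encodes the neuroendocrine granule protein secretogranin II, stood at the bottom of the range in its only probe set, at 2.70, 2.72 and 2.78 in null pools 1 to 3, against 2.63, 2.64 and 2.64 in wild-type pools 1 to 3. The groups did not overlap, but the change was 0.10 (SE 0.06, 95% interval -0.04 to 0.24; limma adjusted p = 0.654). At this level the probe set cannot show whether a weakly expressed Scg2 changed.

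Set together, the 13 probe sets of Mrpl44, Cul3, Scg2 and Acsl3 had 0 calls in limma. Since only 0.0844% of all probe sets were called, nothing is read from that 0. In 1 of the 13, the dimmest of Acsl3, the unadjusted p was under 0.05 (against 9.41% of all probe sets). Their median change was -0.01, with 6 above 0 and 7 below, beside a median of 0.01 over all probe sets. Pools did not overlap in 2 of the 13, both higher in null pools, where 14.4% of all probe sets do not overlap and 8.62% are higher without overlap. The upper end of the 95% interval, taken 1 probe set at a time, was at most 0.25 among the 13. The changes were 1.17 for the brightest Wdfy1 probe set and 0.54 for Ap1s3, both genes chosen with their values known. A rise of either size was outside the interval of each neighbouring probe set, with the reservation on dim signals for Scg2. Since both sizes come from chosen genes, the comparison carries no test.

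**Figure D2:**
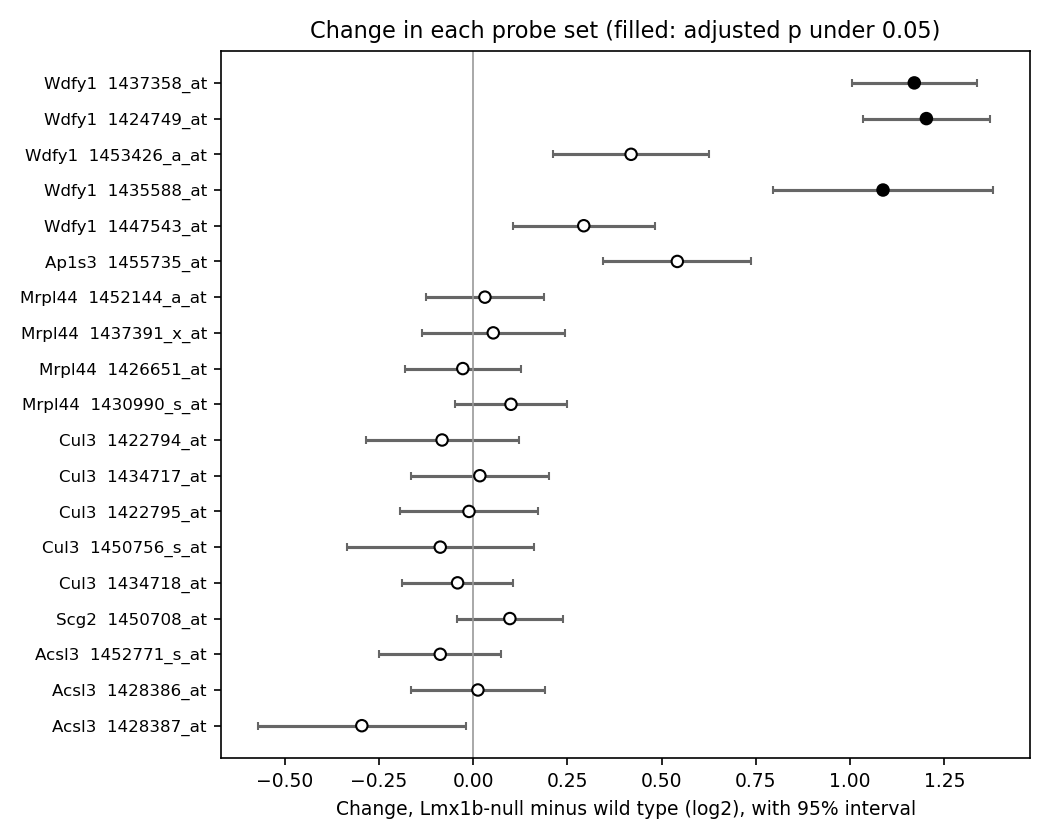
Change of each probe set (x axis, log2, Lmx1b-null minus wild type), with its 95% interval from limma; filled points have an adjusted p under 0.05. The 3 filled points belong to Wdfy1, Ap1s3 lies at 0.54, and the 13 probe sets of the remaining 4 genes lie between -0.30 and 0.10.

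The difference from the neighbours was also taken within each array, as the log2 value of the brightest Wdfy1 probe set minus the mean of the brightest probe sets of Mrpl44, Cul3, Scg2 and Acsl3. It was -0.14, -0.35 and -0.23 in null pools 1 to 3, against -1.54, -1.42 and -1.32 in wild-type pools 1 to 3. The level of such a difference has no meaning across probe sets, but its change does, at 1.18. For Ap1s3 the same difference was -0.88, -0.94 and -1.11 in null pools, against -1.65, -1.43 and -1.51 in wild-type pools, a change of 0.55. Both genes were picked with their values known, so the 2 differences carry no test. With the mean over all probe sets of a gene in place of the brightest, the change was 0.84 for Wdfy1 and 0.55 for Ap1s3. In both forms Scg2 counts among the neighbours, although its dim probe set cannot show whether it changed.

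The view was then widened to the 15 measured genes on each side of Wdfy1. Leaving out Wdfy1 and Ap1s3, these were 29 genes with 65 probe sets, of which 0 passed in limma and 12 had an unadjusted p under 0.05, 5 higher and 7 lower. That is 18.5% beside 9.41% of all probe sets, but 5 of the 12 belong to Epha4, and without that gene 7 of 60, or 11.7%, remained, a split made after the values were seen. At the share called over all probe sets (0.0844%), 65 probe sets would hold 0.0548 calls, so nothing is read from the 0. None of the 65 was higher in null pools by as much as Ap1s3, the highest being 0.31, whereas 2 of Epha4, at -0.64 and -0.56, were larger in size in the opposite direction. Pools did not overlap in 18 of the 65 (27.7%, beside 14.4% of all probe sets), with 12 higher in null pools (18.5%, beside 8.62%) and 6 lower, 5 of them of Epha4. Without Epha4, pools did not overlap in 13 of 60 (21.7%), with 12 higher in null pools (20%) and 1 lower. The 12 came from 10 genes, among them Irs1, Rhbdd1 and Ccl20. In the brightest probe set of each gene, 17 genes were above 0 and 12 below, with a median of 0.03 beside 0.02 over all genes.

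The 5 genes of the window with the largest changes in their brightest probe set were Epha4 (-0.53), Dock10 (-0.50), Irs1 (0.27), Tm4sf20 (0.19) and Obsl1 (0.18), none past the threshold. Epha4, an ephrin receptor that guides motor axons in the hindlimb, read 7.83, 8.15 and 7.81 in null pools 1 to 3, against 8.39, 8.55 and 8.43 in wild-type pools 1 to 3, and its 5 probe sets changed by -0.64 to -0.37 without overlap of pools (limma adjusted p from 0.116 to 0.438). Its direction was thus opposite to that of Wdfy1. Dock10, a guanine nucleotide exchange factor gene next to Cul3, read 4.72, 5.23 and 5.14 in null pools, against 5.95, 5.53 and 5.11 in wild-type pools, so that its groups overlapped (adjusted p = 0.525). Irs1, the insulin receptor substrate gene, read 10.08, 10.05 and 10.13 in null pools, against 9.55, 9.96 and 9.92 in wild-type pools (adjusted p = 0.498). Among genes nearest to Wdfy1, Utp14b, Kcne4, Fam124b and 2310015K22Rik changed by 0.05, -0.12, -0.05 and 0.11. The last, near the bottom of the range, was higher in null pools without overlap (adjusted p = 0.662 in limma).

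**Figure D3:**
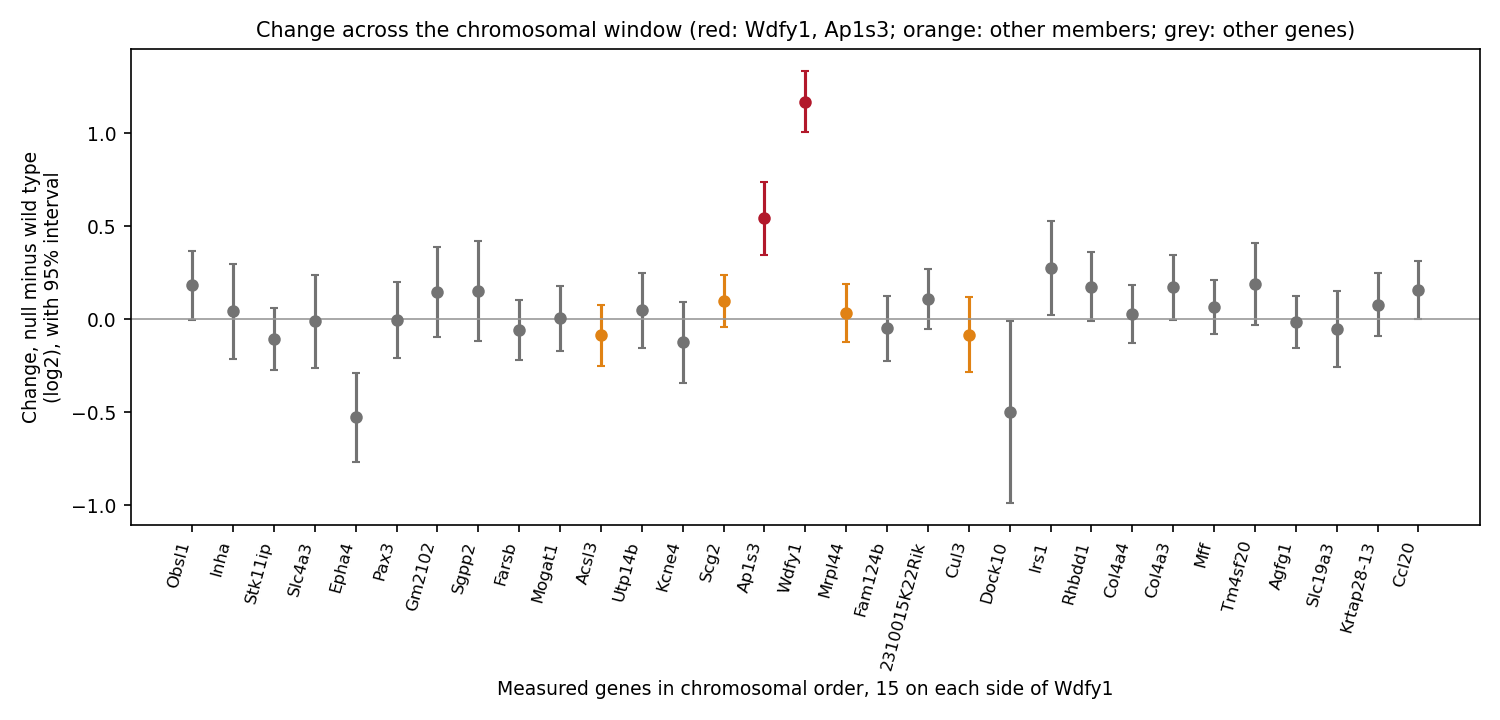
Change in the brightest probe set of each measured gene (y axis, Lmx1b-null minus wild type, log2, with 95% interval) in chromosomal order, 15 genes on each side of Wdfy1 (x axis, order only). Wdfy1 at 1.17 and Ap1s3 at 0.54 stand side by side in red, the other 4 genes in orange lie between -0.09 and 0.10, and Epha4 and Dock10 lie at -0.53 and -0.50.

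Along the whole of chromosome 1, with 1066 measured genes, 7 of 2161 probe sets (0.324%) passed, against 0.0844% of all probe sets. Chromosome 14 had a higher share, 6 of 1227 (0.489%), of which 3 were higher in null pools. Without Wdfy1 on chromosome 1 it was 4 of 2156 (0.186%), and the share at an unadjusted p under 0.05 was 12.2%, beside 9.41% of all. These 4 were 1 probe set each of Stk25, a serine/threonine kinase gene, of Nrp2, a semaphorin receptor gene, of Kansl1l and of Angptl1. All lay far from Wdfy1 in gene order: Nrp2 was the 116th and Kansl1l the 86th measured gene on the Ap1s3 side, and Stk25 was the 115th and Angptl1 the 388th on the other. They had no common direction. Stk25 read 6.11, 5.75 and 6.37 in null pools 1 to 3, against 8.01, 7.85 and 7.72 in wild-type pools 1 to 3, or -1.78 on the log2 scale (limma adjusted p = 0.00869). The Nrp2 probe set changed by -0.87, that of Kansl1l by 0.71 and that of Angptl1 by 0.62. In Nrp2, Kansl1l and Angptl1 the brightest probe set did not pass, with changes of -0.72, 0.08 and 0.16. The 6 probe sets of Kansl1l ran from -0.38 to 0.71. Of the 10 probe sets that were higher in null pools over the whole genome, 5 were on chromosome 1, 3 of Wdfy1 and 1 each of Kansl1l and Angptl1. The 4 calls outside Wdfy1 depended on which pools entered: 0 of them remained without null pool 1 or wild-type pool 2, or once Xist was a covariate, and 1, that of Stk25, without null pool 2, null pool 3 or, beside others not called with all pools, wild-type pool 1. Without wild-type pool 3, 2 remained, those of Stk25 and Kansl1l. Probe sets of 1 gene share their target, so these counts carry no test.

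**Figure D4:**
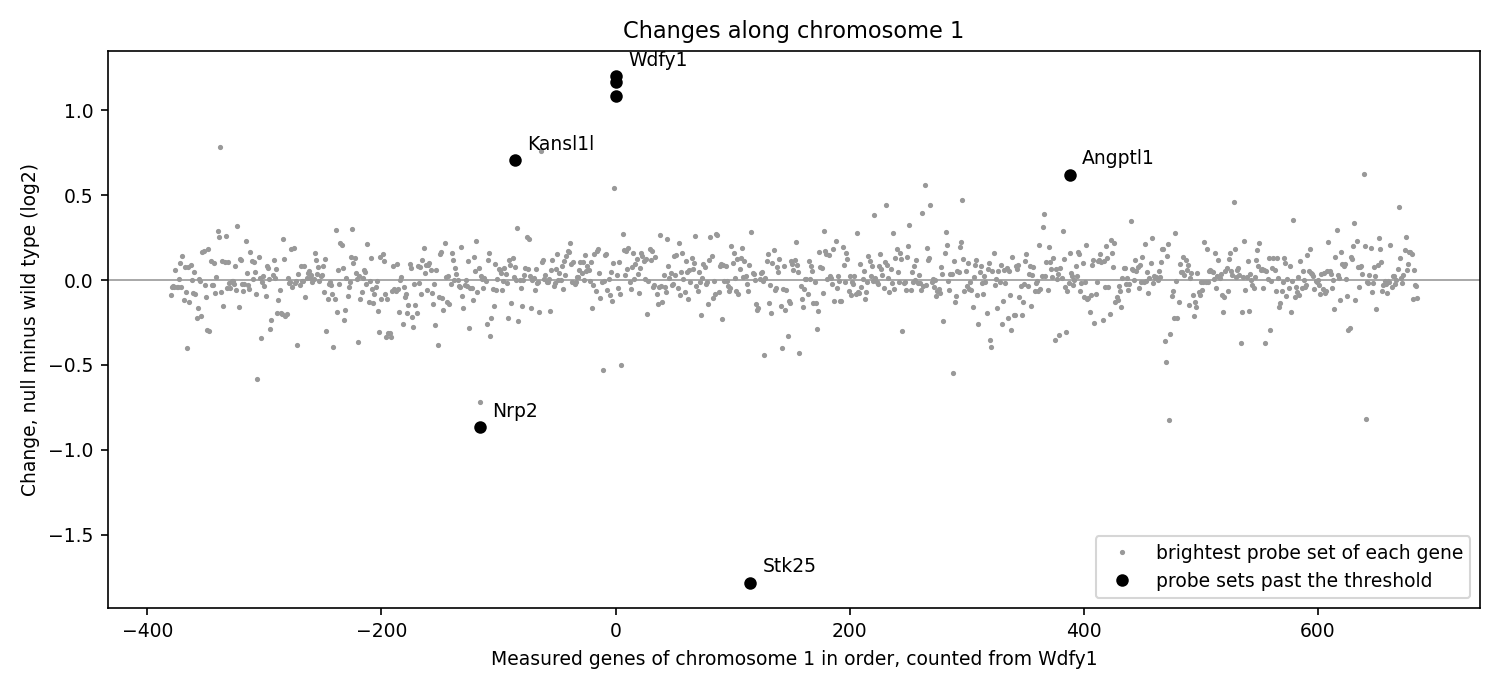
Change of each measured chromosome 1 gene in its brightest probe set (small grey points; y axis, Lmx1b-null minus wild type, log2) against its place in gene order counted from Wdfy1 at 0 (x axis). Large black points are the 7 probe sets with an adjusted p under 0.05, 3 of them from Wdfy1, and Stk25 at -1.78 is the lowest of them.

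Relatives and partners of these genes elsewhere in the genome were checked in 8 lists with 134 measured genes. In the brightest probe set of each gene 0 passed in either direction in limma in any list, against 0.0934% of all genes, a share at which 134 genes would hold 0.125 calls, so nothing is read from the 0. Of the 134, 73 were above 0 and 61 below, and 4 had an unadjusted p under 0.05, or 2.99% beside 8.92% of all genes. The 24 other FYVE and WDFY family genes had a median change of -0.01. The close relatives Wdfy2, Wdfy3 and Wdfy4 changed by -0.07, 0.03 and 0.11. The endosomal tethering gene Eea1 had the largest change of the 8 lists, -0.48 (SE 0.24), with overlapping pools, and Plekhf1 (-0.24) and Zfyve19 (0.16) had the smallest p of their list (limma adjusted p = 0.417 and 0.479).

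The 11 genes of TLR3 and TLR4 signalling had a median of 0.04. Ticam1, which encodes TRIF, changed by 0.12 (adjusted p = 0.645) and Cxcl10, an interferon-induced chemokine gene, by 0.11 (adjusted p = 0.737). Tlr3, at 3.69 in null and 3.72 in wild-type pools, and Tlr4, at 4.46 in null and 4.39 in wild-type pools, lay below the median level of the arrays. The 11 AP-1 adaptor genes had a median of 0.00. The other small subunit genes Ap1s1 and Ap1s2 changed by -0.01 and -0.11, while Ap1m2 (0.17) and Aftph (-0.15) had the smallest p.

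The 17 CUL3 ligase genes had a median of -0.01, including Rbx1, the RING subunit gene, at -0.02 and the adaptor gene Keap1 at 0.01. Kbtbd2 (-0.15) and Klhl2 (-0.13) had the smallest p. Of 43 further genes of the mitochondrial large ribosomal subunit 22 were above 0 and 21 below, and Mrpl23 (-0.17) and Mrpl9 (0.20) had the smallest p. The granin list (7 measured), the serpin and plasminogen activation list (13 measured) and the acyl-CoA synthetase list (8 measured) had medians of 0.05, 0.03 and -0.01. In them Vgf (0.12), Scg5 (0.26), F2 (0.14), Plaur (0.17), Slc27a4 (0.26) and Acsl4 (-0.29) had the smallest p.

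The search for genes with a profile like that of Wdfy1 over the 6 pools left out the 6 genes themselves. Likeness was measured as the root mean square difference over the 6 pools after each gene's brightest probe set was centred on its wild-type mean, over 18187 other genes. Nearest to Wdfy1 were Ebf2, at 0.23 log2 units, then Rspo1 at 0.28, Pax9 at 0.29, Nefl at 0.29 and Tbx22 at 0.29. The first of these, a transcription factor gene of chromosome 14, read 7.51, 7.36 and 7.56 in null pools 1 to 3, against 6.43, 6.76 and 6.65 in wild-type pools 1 to 3. Nearest to Ap1s3 were Enox1 (0.04), Apela (0.08), Fam241b (0.08), Tfap2a (0.09) and Prr36 (0.09), on chromosomes 14, 8, 10, 13 and 8. Of the genes left out, Ap1s3 lay at 0.46 from Wdfy1, with 21 of the 18187 nearer, and for the remaining 4 the number nearer ran from 3778 for Scg2 to 15281 for Cul3. Seen from Ap1s3, at that same distance, 14819 of the 18187 were nearer than Wdfy1. For the remaining 4 the number nearer to Ap1s3 ran from 3496 for Scg2 to 15485 for Cul3. The rank of 21 therefore does not make the 2 profiles unusually alike. No gene of chromosome 1 was among the 10, and since the measure follows the difference between the groups, it carries no test.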

How the data were processed

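Expression was measured on 6 arrays, 1 per pool. The authors deposited log2 values made with RMA, per the submitters' processing notes (version not given in the sources used here). Log2 is inferred from their range (1.77 to 13.7). Quantile normalization inside RMA hides a shift of most transcripts. The table has 45101 probe sets; after removal of 64 controls, 45037 were tested, of which 34945 had 1 symbol, 932 several and 9160 were unnamed here. Gene order came from a RefSeq table of GRCm38.p6, which held the symbols of 34884 probe sets.

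The comparison used limma 3.58.1 under R 4.3.3 (lmFit and eBayes, two-sided, Benjamini-Hochberg over all tested probe sets, threshold 0.05). The median standard error was 0.0843; the number of arrays limits precision. The exact permutation tests planned for the differences of Wdfy1 and Ap1s3 from their neighbours are not reported, since both genes were chosen on these values. The design listed Serpine2 among the neighbours of the within-array difference; without its values, 4 genes were used. The pools hold different embryos, and the 3 of a group were treated as replicates. The fit was tested on simulated data.

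The 7 genes, the window and the lists were chosen with earlier results of these data known. Named were all probe sets of the 7 genes, the 5 window genes with the largest change, genes of chromosome 1 past the threshold, the 2 genes of smallest p per list when none passed, and the 5 nearest profiles; other named genes are examples chosen after their values were seen. Alternatives were an intensity trend, the robust option, median centring, repeated quantile normalization, a level filter, removal of probe sets with shared-sequence suffixes, the pool number as a block, the Xist level, window width and leaving out each pool.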

Additional observations from a re-analysis of the deposited data

How the results depend on the processing

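Leaving out Wdfy1 and Ap1s3, the window held 0 calls under all 17 alternatives, including 5 or 30 genes on each side, where the overall share of 0.0844% gives 0.0548 calls in 65 probe sets, so this says nothing about the neighbours. Among the 19 probe sets, 3 were called with all pools and 2 to 3 with 1 pool left out; with the Xist level in the fit it was 1, and the brightest Wdfy1 probe set, at 1.16, was not called. The change of Wdfy1 ran from 1.13 to 1.21 over these, and that of Ap1s3 from 0.49 to 0.61, not called under any of them. Against the neighbours, the Wdfy1 change of 1.18 was 0.84 with the mean over all probe sets of a gene, which brings in its weaker probe sets. Signs turned in neighbours near 0: Mrpl44 was at -0.027 and Acsl3 at 0.013 with suffixed probe sets left out, where another probe set is the brightest, and Mrpl44 was between -0.00014 and 0.065 with 1 pool left out. Scg2 has no value above the median level.

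Over all probe sets, against 38 calls, 94 were made with an intensity trend, 20 among bright probe sets, 9 with the Xist level and 13 to 38 with 1 pool left out: 13 without null pool 1, 20 without null pool 2, 18 without null pool 3, 15 without wild-type pool 2 and 21 without wild-type pool 3. The pool number as a replicate block gave 14 calls, 2 of them in Wdfy1. Deviations of same-numbered pools from their group means correlated at -0.239, -0.088 and -0.168. Pools of unlike number were not compared, and whether same-numbered pools were handled together was not tested. The block changed no call in the window or in the brightest probe sets of the 6 genes. Of the 4 calls on chromosome 1 outside Wdfy1 it kept that of Stk25. That chromosome had 0 calls outside Wdfy1 with the Xist level and 11 with an intensity trend. The cause of these differences was not tested. Low signal limits what the Scg2 probe set and the dimmest Wdfy1 probe set can show.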
